A study of Homo sapiens with 12 samples.

Results

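A set of 59 genes was transcribed in control HUDEP-2 erythroid cells and strongly reduced when MBD2 was disrupted. They were chosen from 60483 counted genes by level alone. Counts summed over the 6 control libraries had to reach 100, and the CPM (counts scaled from each library's total to the usual common library size) summed over the 6 knockout libraries had to be at most 25% of the control sum. Both conditions were met by 74 genes, of which 15 were left out: 4 on chromosome 18, 5 on chromosome X, 3 zinc finger genes of chromosome 19 and 3 excluded by name. The names barred by the rule were ID4, MS4A2, SIGLEC6, CPA3, CSF2RB, ERG and SNAI2. MS4A2, SIGLEC6, CPA3 and CSF2RB are on the list of mast cell and basophil markers used below, and ERG on that of stem and progenitor genes. Of the 59 genes, 53 were protein-coding, 2 were lincRNAs, 3 were pseudogenes of different kinds and 1 was a sense intronic transcript. All 59 passed the filter on low counts used for testing.

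The libraries came from HUDEP-2, an immortalized human erythroid progenitor line derived from umbilical cord blood. Knockout cells carried the MBD2-/- genotype, and control cells were wild type for MBD2 and carried a scrambled guide RNA (sgSCR). Each genotype was sequenced after differentiation (late basophilic erythroblasts) and before it (early basophilic erythroblasts), with 3 libraries in each of the 4 groups. All cells were cultured with EPO (erythropoietin) and DOX (doxycycline). Differentiation medium also held AB serum, insulin, heparin and transferrin, whereas expansion medium held SCF (stem cell factor) and DEX (dexamethasone), so stage and medium cannot be told apart. The labels give 5 days of differentiation in one protocol and 3 in another. They say neither whether knockout cells were a clone nor whether replicates were separate cultures, so every p-value reflects how much the libraries of a group varied, which may be technical.

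MBD2 binds methylated CpG dinucleotides and recruits the NuRD complex, which remodels nucleosomes and removes histone acetylation. The complex is best known in erythroid cells for silencing fetal globin genes. RNA levels alone do not tell direct targets of a regulator from indirect ones. The 59 genes are not an established pathway. They include prostaglandin enzymes, ion channels, regulators of the small GTPase Rac, parts of cilia and surface proteins of immune cells.

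Total counts ran from 7667997 to 14047498 per library. MBD2 itself, on chromosome 18, had 16.7, 16.1 and 14.6 CPM in knockout libraries after differentiation, against 61.2, 58.9 and 58.0 CPM in control libraries. Before differentiation it had 22.7, 19.8 and 24.4 CPM in knockout libraries, against 78.5, 77.4 and 75.1 CPM in control libraries. The labelled cell type was checked with 24 erythroid markers, all of which were detected and tested. TFRC, the transferrin receptor, averaged 11700 CPM in knockout and 6800 CPM in control cells after differentiation. Of 25 lymphoid markers 3 passed the filter on low counts, and the T cell gene CD3E was the only 1 with 0 counts in every library. CPM from here on are scaled by TMM factors (a correction for library composition), and means are given ± SD over 3 libraries.

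The name given to the set, active in control and lost in knockout, held only in part. Over all libraries the knockout level was between 1.80 and 24.9% of control, with a median of 16.4%, so residual expression remained. After differentiation the median was 15.8% and 47 of 59 genes lay at or below 25% of control. Before differentiation it was 17.1% and 42 genes lay at or below 25%. Every knockout library was below every control library for 53 genes after differentiation, where this held for 23.6% of all tested genes, and for 55 genes before it, where it held for 15.4%. By edgeR's quasi-likelihood test 53 of the 59 were called lower after differentiation, where 16.3% of all 17175 tested genes were, and 56 before it, where 8.15% were. These counts follow from how the genes were chosen. With library sizes only in place of TMM, 27.7% of all genes called after differentiation were higher rather than 50.7%, and the median of all genes was -0.17 on the log2 scale. ADAMTS14 had 0 control counts before differentiation, and PROKR1 and AC215217.1 were above control after it, at 130 and 194%, but on 5 counts in each genotype for PROKR1 and 1 in each for AC215217.1. The 59 genes together had 78.3, 75.8 and 76.2 CPM (before TMM scaling) in knockout libraries after differentiation, against 608, 548 and 583 CPM in control libraries. Before differentiation they had 235, 221 and 260 CPM in knockout libraries, against 1440, 1340 and 1430 CPM in control libraries. In such bulk RNA, fewer cells of a type and less RNA per cell cannot be told apart.

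**Figure D1:**
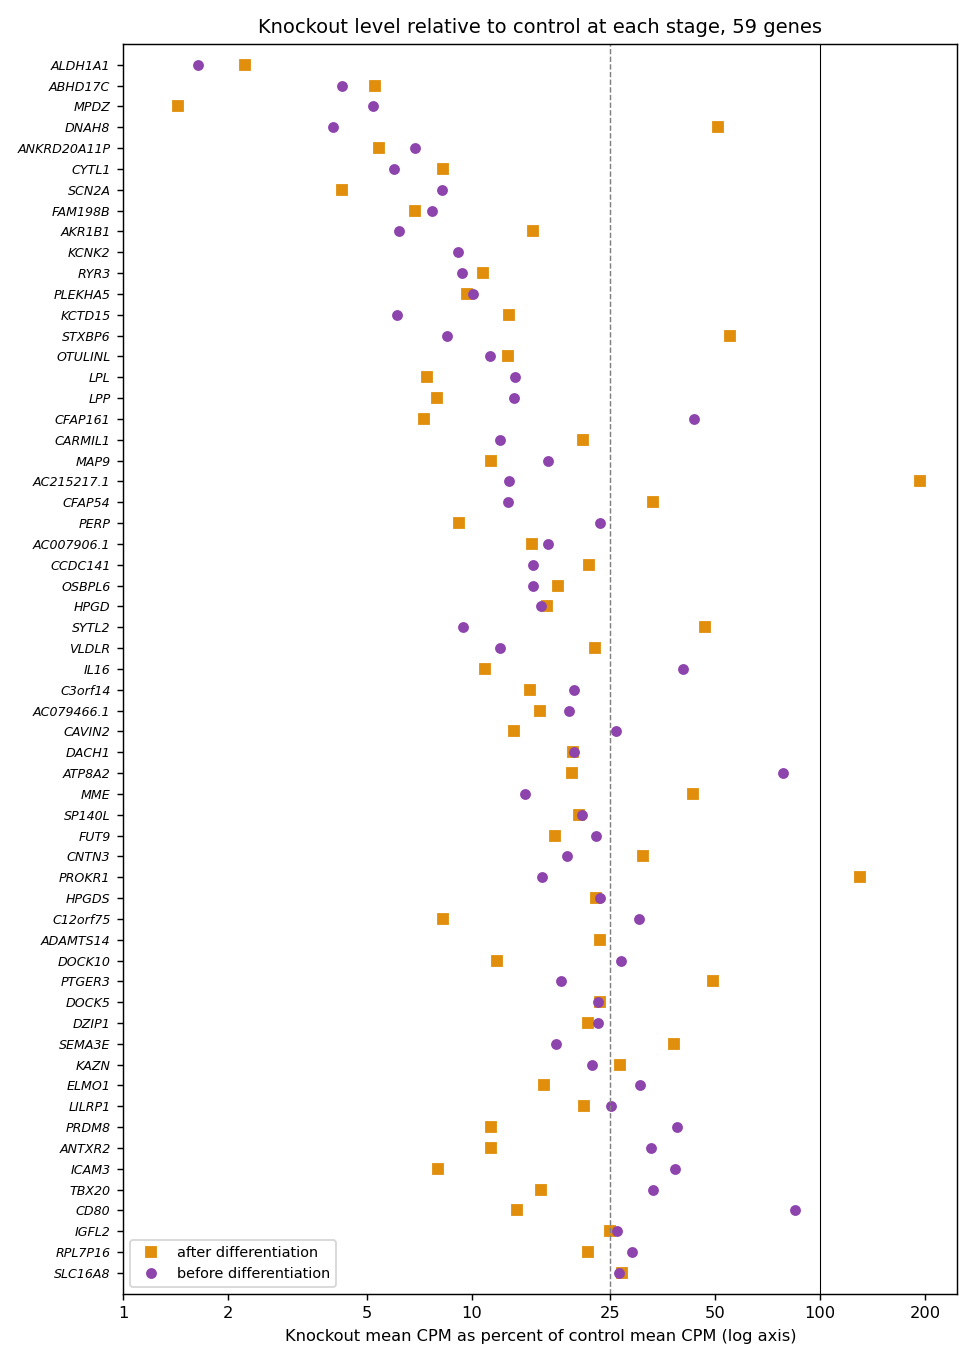
Knockout mean CPM as a percentage of control mean CPM (log axis) for each of the 59 genes, after (squares) and before (circles) differentiation, ordered by the percentage over all libraries. The dashed line marks 25% and the solid line 100%. KCNK2 after differentiation (0%) and ADAMTS14 before it (no control counts) have no point. Most genes have both marks left of 25%, while PROKR1 and AC215217.1 lie right of 100% after differentiation.

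Genes lay close to the threshold on both sides. Just inside the ratio limit were IGFL2 at 24.0%, RPL7P16 at 24.4% and SLC16A8 at 24.9% of control. Just outside were VAV3 at 25.1%, SASH1 at 25.4% and CD84 at 25.7%. On the count limit, SLC16A8 and AC215217.1 with 106 control counts and CD80 with 108 were the lowest inside. RASAL3 with 84, AC096751.1 with 92 and GABBR1 with 96 met the ratio but had too few counts. Of the 59 genes, 23 had fewer than 200 control counts, so their levels in single libraries are coarse.

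Prostaglandin metabolism supplied the most abundant gene. HPGD (ENSG00000164120.12, hg38 chromosome 4, 174490177 to 174523154, minus strand) encodes the dehydrogenase that inactivates prostaglandins. It had 9.00, 9.23 and 6.87 CPM in knockout libraries after differentiation, against 53.4, 45.6 and 53.2 CPM in control libraries. HPGD had 85.0, 77.3 and 93.3 CPM in knockout libraries before differentiation, against 575, 511 and 527 CPM in control libraries. The groups were far apart at both stages, and the knockout level was nearly the same fraction of control, 16.5% after and 15.8% before. HPGD fell with differentiation in knockout cells by 3.33 ± 0.11 (log2, SE; adjusted p = 7.53e-13, edgeR quasi-likelihood test over all genes, as throughout) and in control cells by 3.41 ± 0.09 (adjusted p = 1.29e-13). The 2 changes differed by 0.08 ± 0.15 (adjusted p = 0.804). Before differentiation HPGD made up 36.5 to 37.4% of the counts of the 59 genes in knockout libraries and 39.5 to 40.9% in control libraries. Per kilobase of exon its mean control level was 9.17 CPM after and 97.3 CPM before differentiation, and the next highest control level before differentiation was the 16.4 CPM per kilobase of C12orf75. After differentiation CFAP161, a ciliary gene, was highest in control cells, at 14.1 CPM per kilobase.

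HPGDS (ENSG00000163106.9, chromosome 4, 94298535 to 94342876, minus strand), hematopoietic prostaglandin D synthase, makes prostaglandin D2 and is also a mast cell gene. Its level was low, at 0.584, 0.858 and 0.981 CPM in knockout libraries after differentiation, against 4.02, 3.69 and 2.94 CPM in control libraries. HPGDS had 0.360, 0.269 and 0.271 CPM in knockout libraries before differentiation, against 1.59, 0.945 and 1.33 CPM in control libraries. Unlike HPGD it rose with differentiation, in knockout cells by 1.36 ± 0.45 (adjusted p = 0.017) and in control cells by 1.5 ± 0.24 (adjusted p = 9.06e-05). Of 15 tested mast cell and basophil markers, HPGDS among them, 12 were lower and 2 higher in knockout cells over both stages. Of all tested genes 16.9% were lower and 17.3% higher. The summed level of the markers after differentiation was 626 to 641 CPM in knockout and 1050 to 1070 CPM in control libraries. Most of this was KIT, also listed as a stem and progenitor gene, which averaged 369 and 584 CPM. With differentiation most of these markers fell, unlike HPGDS, 13 of 15 tested in knockout cells and 11 of 15 in control cells. Their part in the lower HPGDS level was not tested. PTGER3 encodes the prostaglandin E2 receptor EP3. It had 1.4, 2.04 and 1.82 CPM in knockout libraries after differentiation, against 4.21, 2.75 and 3.67 CPM in control libraries. PTGER3 had 2.88, 3.13 and 4.42 CPM in knockout libraries before differentiation, against 19.6, 19 and 19.1 CPM in control libraries. The libraries did not overlap at either stage, but the gap was wider before differentiation. PTGER3 fell with differentiation in knockout cells by 0.97 ± 0.25 (adjusted p = 0.00323) and in control cells by 2.46 ± 0.17 (adjusted p = 5.24e-09).

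ALDH1A1 and AKR1B1 act on aldehydes. ALDH1A1 (ENSG00000165092.11, chromosome 9, 72900662 to 73080442, minus strand) oxidizes retinaldehyde to retinoic acid and is a marker of stem and progenitor cells. It had 0.234, 0.536 and 0.140 CPM in knockout libraries after differentiation, against 14.2, 12.1 and 14.5 CPM in control libraries. ALDH1A1 had 0.216, 0 and 0.451 CPM in knockout libraries before differentiation, against 13.9, 12.3 and 14.4 CPM in control libraries. At 1.80% of control over all libraries it was the lowest of the 59 genes, with 16 counts in knockout and 940 in control libraries. Its control level was 13.6 ± 1.30 CPM after and 13.5 ± 1.12 CPM before differentiation, and neither stage change was called. AKR1B1 encodes aldose reductase, which reduces glucose to sorbitol and can also form prostaglandin F2 alpha. It had 0.117, 0.965 and 0.280 CPM in knockout libraries after differentiation, against 3.27, 3.40 and 2.41 CPM in control libraries. AKR1B1 had 0.863, 0.895 and 0.271 CPM in knockout libraries before differentiation, against 11.6, 10.4 and 10.7 CPM in control libraries. It fell with differentiation in control cells by 1.82 ± 0.24 (adjusted p = 8.39e-06).

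Since MBD2 reads methylated CpG, the start-site windows of these 4 enzyme genes are shown with every CpG in capitals. Each runs from 250 bases before to 50 after the RefSeq start in GRCh38.p14, on the minus strand, read 5′ to 3′. They lie at chr4:174522439-174522738 for HPGD, chr4:94342787-94343086 for HPGDS, chr9:72953004-72953303 for ALDH1A1 and chr7:134459051-134459350 for AKR1B1.
HPGD: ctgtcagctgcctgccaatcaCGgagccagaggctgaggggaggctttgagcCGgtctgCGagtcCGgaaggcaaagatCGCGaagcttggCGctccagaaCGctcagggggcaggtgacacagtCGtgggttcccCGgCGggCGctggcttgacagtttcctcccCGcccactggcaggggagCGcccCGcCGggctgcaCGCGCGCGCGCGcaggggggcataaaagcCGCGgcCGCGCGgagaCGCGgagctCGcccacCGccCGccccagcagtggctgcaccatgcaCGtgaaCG
HPGDS: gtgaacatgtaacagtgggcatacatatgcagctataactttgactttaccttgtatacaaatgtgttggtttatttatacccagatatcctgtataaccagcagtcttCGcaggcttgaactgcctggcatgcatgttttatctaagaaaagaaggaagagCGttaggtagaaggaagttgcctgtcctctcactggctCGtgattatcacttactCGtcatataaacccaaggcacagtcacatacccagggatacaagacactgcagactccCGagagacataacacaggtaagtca
ALDH1A1: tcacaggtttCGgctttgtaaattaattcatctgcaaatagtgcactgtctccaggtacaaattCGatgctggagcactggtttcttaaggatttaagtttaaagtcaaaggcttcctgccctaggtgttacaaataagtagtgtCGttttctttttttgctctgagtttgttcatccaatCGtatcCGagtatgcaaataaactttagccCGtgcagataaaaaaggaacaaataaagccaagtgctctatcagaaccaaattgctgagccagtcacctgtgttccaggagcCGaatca
AKR1B1: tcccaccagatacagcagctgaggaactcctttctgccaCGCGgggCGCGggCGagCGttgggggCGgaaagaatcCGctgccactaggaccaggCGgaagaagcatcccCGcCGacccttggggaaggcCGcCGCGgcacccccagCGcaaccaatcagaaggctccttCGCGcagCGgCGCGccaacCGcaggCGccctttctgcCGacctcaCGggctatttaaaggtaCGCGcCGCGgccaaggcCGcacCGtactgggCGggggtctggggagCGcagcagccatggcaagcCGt
The HPGD window held 34 CpG and the AKR1B1 window 33, at 0.90 and 0.93 of the number expected from base composition. The HPGDS window held 5 and the ALDH1A1 window 7, at 0.36 and 0.57 of the number expected. Both CpG-rich and CpG-poor starts thus occurred among these enzymes. DNA methylation was not analysed here.

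Other lipid genes were LPL, the lipase of circulating triglycerides, VLDLR, a lipoprotein receptor, OSBPL6, an oxysterol-binding protein relative, and ATP8A2, a phospholipid flippase. OSBPL6 had 5.84, 6.65 and 6.17 CPM in knockout libraries after differentiation, against 37.8, 33.8 and 33.8 CPM in control libraries. OSBPL6 had 2.88, 3.40 and 2.44 CPM in knockout libraries before differentiation, against 18.8, 18.2 and 21.2 CPM in control libraries. OSBPL6 rose with differentiation in both genotypes, by 1.10 ± 0.16 in knockout (adjusted p = 2.12e-05) and by 0.86 ± 0.10 in control cells (adjusted p = 3.30e-06). ATP8A2 was nearly silent before differentiation, with 4 counts in knockout and 5 in control libraries. After differentiation it had 1.05, 0.751 and 1.12 CPM in knockout libraries, against 5.70, 4.35 and 5.04 CPM in control libraries. Its place in the set therefore rested on the later stage, where the libraries did not overlap. LPL averaged 0.322 ± 0.178 CPM in knockout and 4.32 ± 0.906 CPM in control cells after differentiation, and 1.34 ± 0.166 and 10.1 ± 1.2 CPM before. VLDLR averaged 2.05 ± 0.515 CPM in knockout and 9.07 ± 0.391 CPM in control cells after differentiation, and 1.12 ± 0.274 and 9.24 ± 1.6 CPM before.

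**Figure D2:**
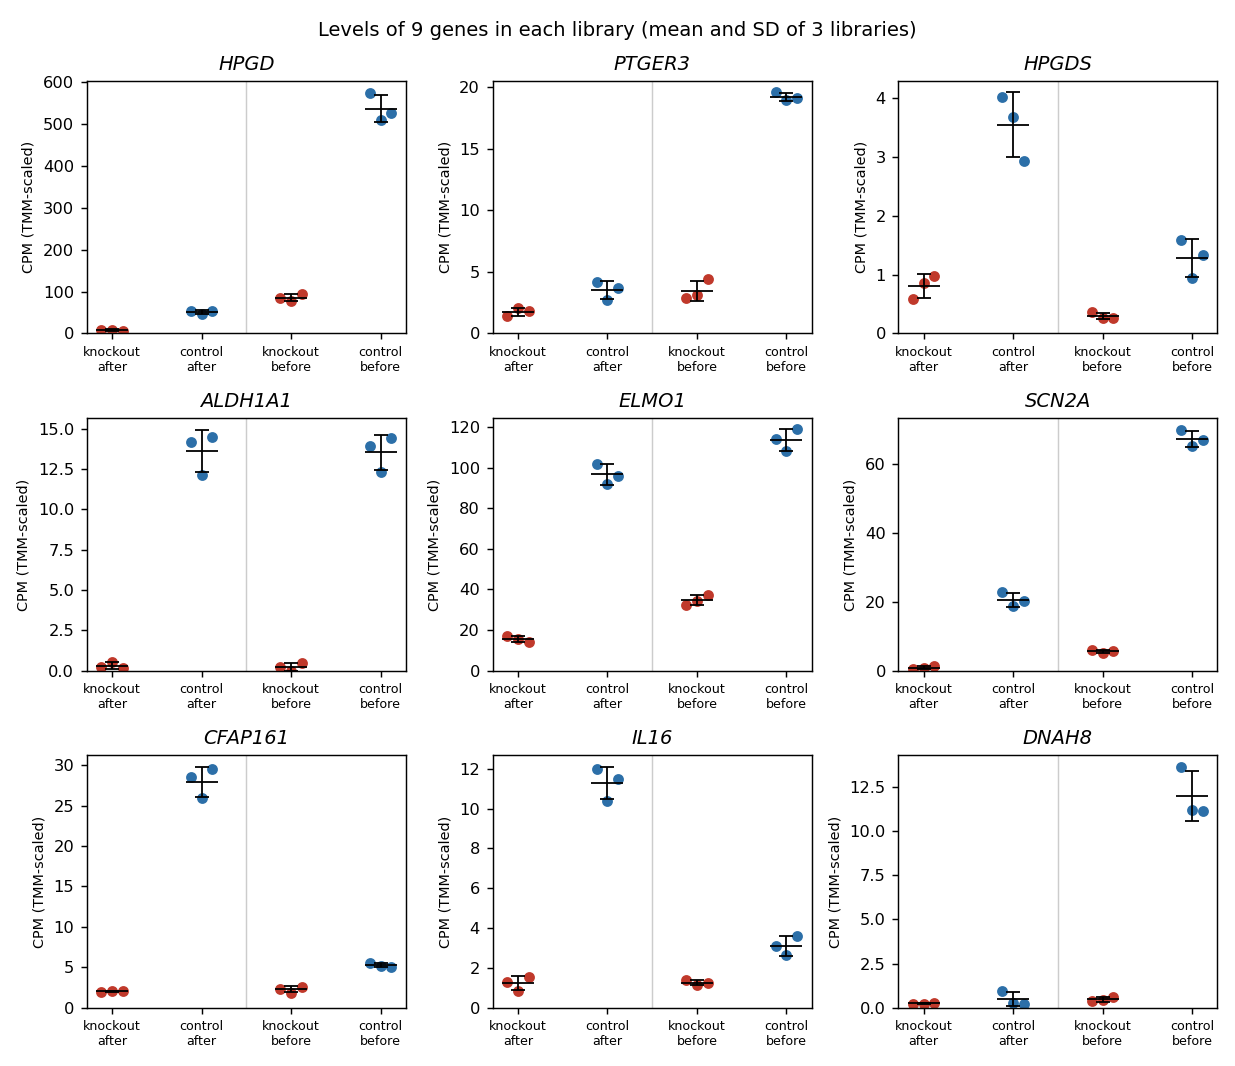
TMM-scaled CPM of 9 of the genes in every library, with the mean (long bar) and SD (capped bar) of 3 libraries, for knockout (red) and control (blue) after (left) and before (right) differentiation. Each axis starts at 0. Knockout points lie below control points in every panel except DNAH8 after differentiation, where they overlap, and CFAP161 and IL16 are highest in control cells after differentiation.

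Ion channel genes and a relative with a channel-like domain were among the 59. RYR3 (ENSG00000198838.10, chromosome 15, 33310962 to 33866102, plus strand) encodes a calcium release channel of the endoplasmic reticulum. It had 4.67, 3.33 and 5.05 CPM in knockout libraries after differentiation, against 39.7, 38.7 and 42.4 CPM in control libraries. RYR3 had 8.27, 7.61 and 9.20 CPM in knockout libraries before differentiation, against 93.1, 83.5 and 91.2 CPM in control libraries. It fell with differentiation in knockout cells by 0.96 ± 0.15 (adjusted p = 3.46e-05) and in control cells by 1.15 ± 0.09 (adjusted p = 1.66e-08). SCN2A (ENSG00000136531.12, chromosome 2, 165239402 to 165392310, plus strand) encodes a voltage-gated sodium channel subunit of neurons. It had 0.584, 0.644 and 1.4 CPM in knockout libraries after differentiation, against 22.9, 18.8 and 20.1 CPM in control libraries. Before differentiation it had 5.90, 5.10 and 5.68 CPM in knockout libraries, against 69.9, 65.3 and 66.9 CPM in control libraries. SCN2A fell in knockout cells by 2.71 ± 0.24 (adjusted p = 5.75e-08) and in control cells by 1.71 ± 0.10 (adjusted p = 9.96e-10). KCNK2, a background potassium channel, had 0 counts in knockout and 5 in control libraries after differentiation, and 11 and 114 before. KCTD15, whose name comes from a channel-like domain but which is known as a regulator in neural crest development, went the other way with stage. It had 2.80, 2.90 and 4.34 CPM in knockout libraries after differentiation, against 23.6, 26.4 and 28.6 CPM in control libraries. KCTD15 had 0.432, 0.716 and 0.180 CPM in knockout libraries before differentiation, against 7.67, 7.43 and 6.74 CPM in control libraries. KCTD15 rose in knockout cells by 2.86 ± 0.33 (adjusted p = 1.38e-06) and in control cells by 1.85 ± 0.15 (adjusted p = 4.54e-08).

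Another group acts on the small GTPase Rac and the actin cytoskeleton. ELMO1 and DOCK proteins form exchange factors that switch Rac or Cdc42 on, and CARMIL1 regulates actin capping. ELMO1 (ENSG00000155849.14, chromosome 7, 36854361 to 37449249, minus strand) had 17.3, 15.4 and 14.2 CPM in knockout libraries after differentiation, against 102, 92.2 and 95.8 CPM in control libraries. ELMO1 had 32.4, 34.5 and 37.3 CPM in knockout libraries before differentiation, against 114, 108 and 119 CPM in control libraries. ELMO1 was at 16.1% of control after and 30.4% before differentiation, so at the earlier stage alone it would not have met the 25% limit. DOCK10 had 2.34, 1.5 and 1.96 CPM in knockout libraries after differentiation, against 15.3, 16.2 and 17.6 CPM in control libraries. DOCK10 had 9.43, 9.22 and 10.9 CPM in knockout libraries before differentiation, against 36.1, 39.5 and 34.9 CPM in control libraries. DOCK10 fell with differentiation in both genotypes, in knockout by 2.35 ± 0.17 (adjusted p = 5.98e-09) and in control cells by 1.17 ± 0.10 (adjusted p = 1.29e-07). DOCK5 showed no called stage change, with 3.04, 3.22 and 4.2 CPM in knockout libraries after differentiation, against 15.9, 13 and 15.9 CPM in control libraries. Before differentiation DOCK5 had 3.17, 3.13 and 3.88 CPM in knockout libraries, against 15.7, 14.9 and 13.5 CPM in control libraries. CARMIL1 averaged 0.746 ± 0.368 CPM in knockout and 3.57 ± 1.08 CPM in control cells after differentiation, and 1.67 ± 0.436 and 13.8 ± 0.708 CPM before.

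Junction and vesicle genes were lower as well. MPDZ, a scaffold of cell junctions with many PDZ domains, had 1 count in knockout and 89 in control libraries after differentiation, a ratio of 0.0137 after scaling for library size (exact 95% interval of the ratio 0.000343 to 0.0783, counting error only). MPDZ had 0.504, 0.448 and 0.541 CPM in knockout libraries before differentiation, against 9.35, 9.72 and 9.59 CPM in control libraries. PLEKHA5, an adaptor at cell junctions, had 0.818, 0.644 and 0.280 CPM in knockout libraries after differentiation, against 6.17, 5.87 and 5.88 CPM in control libraries. PLEKHA5 had 2.95, 2.15 and 2.26 CPM in knockout libraries before differentiation, against 27.1, 20.1 and 25.5 CPM in control libraries. Its fraction of control was near 10% at each stage, 9.73% after and 10.1% before. SYTL2, an effector of Rab27 in vesicle transport, had 2.57, 1.61 and 1.96 CPM in knockout libraries after differentiation, against 4.95, 4.2 and 3.99 CPM in control libraries. SYTL2 had 1.58, 1.16 and 2.07 CPM in knockout libraries before differentiation, against 19.6, 14.6 and 17.1 CPM in control libraries. With stage, SYTL2 gave 0.34 ± 0.28 in knockout cells (adjusted p = 0.321) and fell by 1.96 ± 0.17 in control cells (adjusted p = 9.96e-08). The focal adhesion protein LPP was at 7.98% of control after and 13.2% before differentiation, and the junction protein PERP at 9.20% and 23.4%. Lower-level members were KAZN, a desmosome-associated protein, at 26.7% and 22.2%, CAVIN2, a coat protein of caveolae, at 13.2% and 26.0%, and STXBP6, a SNARE-binding protein, at 55.2% and 8.48%. STXBP6 libraries overlapped after differentiation.

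Several genes belong to cilia and the axoneme, their microtubule core. DNAH8 encodes a heavy chain of axonemal dynein. It had 0.234, 0.215 and 0.280 CPM in knockout libraries after differentiation, against 0.935, 0.290 and 0.210 CPM in control libraries, which overlap. DNAH8 had 0.360, 0.448 and 0.631 CPM in knockout libraries before differentiation, against 13.6, 11.2 and 11.1 CPM in control libraries. The stage change of DNAH8 in knockout cells, -0.94 ± 0.63, was not called (adjusted p = 0.219), whereas it fell in control cells by 4.63 ± 0.29 (adjusted p = 1.56e-09). CFAP54, a protein of the central apparatus of the axoneme, had 0.234, 0.215 and 0.280 CPM in knockout libraries after differentiation, against 0.841, 0.942 and 0.420 CPM in control libraries. Before differentiation it had 0.935, 0.716 and 0.992 CPM in knockout libraries, against 7.39, 6.48 and 6.93 CPM in control libraries, and its fall in control cells was 3.17 ± 0.23 on the log2 scale (adjusted p = 1.31e-08). CFAP161 (ENSG00000156206.12, chromosome 15, 81007033 to 81149175, plus strand), a protein of ciliary microtubules, did the reverse. It had 1.99, 2.04 and 2.10 CPM in knockout libraries after differentiation, against 28.5, 25.9 and 29.5 CPM in control libraries. CFAP161 had 2.37, 1.88 and 2.62 CPM in knockout libraries before differentiation, against 5.52, 5.20 and 5.03 CPM in control libraries. With stage, CFAP161 gave -0.17 ± 0.21 in knockout cells (adjusted p = 0.584) and rose by 2.41 ± 0.12 in control cells (adjusted p = 1.45e-10). DZIP1, needed for cilium formation, was at 21.6% of control after and 23.0% before differentiation, and MAP9, a microtubule-associated protein, at 11.4% and 16.6%.

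Surface and secreted proteins formed the most varied group. IL16 (ENSG00000172349.15, chromosome 15, 81159575 to 81314058, plus strand), a chemoattractant cytokine for CD4+ cells, lies 10.4 kb from CFAP161 and had a similar pattern. It had 1.29, 0.858 and 1.54 CPM in knockout libraries after differentiation, against 12.0, 10.4 and 11.5 CPM in control libraries. IL16 had 1.37, 1.16 and 1.26 CPM in knockout libraries before differentiation, against 3.09, 2.63 and 3.61 CPM in control libraries. IL16 gave a stage change of -0.08 ± 0.29 in knockout cells (adjusted p = 0.845) and rose by 1.87 ± 0.17 in control cells (adjusted p = 1.23e-07). ABHD17C, a depalmitoylating enzyme 251 kb from CFAP161, did not share the rise. It had 1 count in knockout and 29 in control libraries after differentiation, and 7 and 175 before. CYTL1 (ENSG00000170891.9, chromosome 4, 5014586 to 5019472, minus strand), a small secreted protein first described in CD34+ blood cells, had 1.17, 0.536 and 1.12 CPM in knockout libraries after differentiation, against 11.8, 11.7 and 10.8 CPM in control libraries. CYTL1 had 0.648, 0.627 and 0.722 CPM in knockout libraries before differentiation, against 8.70, 11.6 and 13 CPM in control libraries, and its stage change was not called in either genotype.

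MME encodes neprilysin (CD10), a peptidase on lymphoid progenitors and neutrophils. It had 2.69, 2.47 and 1.4 CPM in knockout libraries after differentiation, against 5.51, 5.51 and 4.2 CPM in control libraries. MME had 2.01, 1.97 and 3.16 CPM in knockout libraries before differentiation, against 18, 16.1 and 16.4 CPM in control libraries. MME gave a stage change of -0.08 ± 0.27 in knockout cells (adjusted p = 0.815) and fell by 1.71 ± 0.17 in control cells (adjusted p = 4.28e-07). ANTXR2, a receptor of extracellular matrix and anthrax toxin, had 1.64, 1.72 and 1.82 CPM in knockout libraries after differentiation, against 13.6, 16 and 15.7 CPM in control libraries. ANTXR2 had 8.27, 6.54 and 6.77 CPM in knockout libraries before differentiation, against 25, 19.8 and 20.8 CPM in control libraries. FUT9, a fucosyltransferase that builds Lewis x on glycans, had 6.66, 4.40 and 3.36 CPM in knockout libraries after differentiation, against 32.6, 23.0 and 27.6 CPM in control libraries. FUT9 had 11.3, 8.50 and 14.3 CPM in knockout libraries before differentiation, against 59.8, 45.4 and 45.7 CPM in control libraries. FUT9 varied between replicates, but the libraries did not overlap at either stage.

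ADAMTS14, a protease that trims procollagen, was detected almost only after differentiation. It had 2.10, 3.00 and 1.96 CPM in knockout libraries after differentiation, against 10.4, 12.1 and 7.76 CPM in control libraries. Before differentiation it had 1 count in knockout and 0 in control libraries. In control cells it was 120-fold higher after than before differentiation when the earlier group was set to a floor of 3 counts. The exact 95% lower limit of the ratio was 97.0 (counting error only). CD80, a costimulatory ligand of T cells, had 0.351, 0.429 and 0.280 CPM in knockout libraries after differentiation, against 2.71, 2.83 and 2.31 CPM in control libraries. CD80 had 0.360, 0.716 and 0.180 CPM in knockout libraries before differentiation, against 0.468, 0.540 and 0.475 CPM in control libraries, which overlap. ICAM3, an adhesion ligand of leukocytes, had 3 counts in knockout and 51 in control libraries after differentiation, and 23 and 61 before. FAM198B, a Golgi membrane protein, had 0.351, 0.429 and 0.140 CPM in knockout libraries after differentiation, against 4.39, 4.13 and 4.83 CPM in control libraries. Before differentiation it had 1.58, 0.358 and 0.902 CPM in knockout libraries, against 11.4, 11.5 and 14.1 CPM in control libraries. The guidance molecule SEMA3E was at 38.2% of control after and 17.5% before differentiation, and the neuronal adhesion gene CNTN3 at 31.0%, with overlapping libraries, and 18.8%. IGFL2, a secreted protein of the IGF-like family, was at 24.9% and 26.2%, and SLC16A8, a monocarboxylate transporter, at 27.0% and 26.4%. PROKR1, a receptor of prokineticins, was at 15.9% of control before differentiation, with 18 counts in knockout and 113 in control libraries.

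Nuclear proteins were few. TBX20 and DACH1 are developmental transcription factors, PRDM8 is a histone methyltransferase relative, and SP140L is a chromatin reader of the SP100 family. All 4 were low, with mean control levels between 1.49 and 2.12 CPM after and between 1.54 and 2.96 CPM before differentiation. PRDM8 lies 58.4 kb from ANTXR2 and had 5 counts in knockout and 60 in control libraries after differentiation. Before differentiation it had 23 and 56, and the libraries overlapped. TBX20 was at 15.8% of control after and 33.2% before differentiation, DACH1 at 19.5% and 19.7%, and SP140L at 20.3% and 20.8%.

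C12orf75 was the most abundant gene of little known function. It had 1.64, 2.57 and 2.80 CPM in knockout libraries after differentiation, against 31.3, 24.6 and 29 CPM in control libraries. C12orf75 had 13.4, 12.6 and 14.3 CPM in knockout libraries before differentiation, against 44.4, 43.1 and 45.4 CPM in control libraries. The lincRNA AC079466.1 on chromosome 19 had 2.45, 2.90 and 1.82 CPM in knockout libraries after differentiation, against 14, 15.1 and 16.6 CPM in control libraries. AC079466.1 had 7.63, 6.27 and 7.13 CPM in knockout libraries before differentiation, against 36.1, 35 and 39.8 CPM in control libraries. Both had non-overlapping libraries throughout. The pseudogene RPL7P16 was at 21.6% of control after and 28.9% before differentiation, the sense intronic transcript AC007906.1 at 14.9% and 16.6%, and the pseudogene LILRP1 at 21.0% and 25.2%. CCDC141, a large coiled-coil protein 427 kb from OSBPL6, had 4 counts in knockout and 24 in control libraries after differentiation, and 25 and 164 before. OTULINL had 1 and 13 counts after and 21 and 174 before, C3orf14 had 4 and 41 after and 14 and 68 before, and the pseudogene ANKRD20A11P had 2 and 48 after and 4 and 60 before.

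Most of these genes changed with stage in control cells, and fewer were called in knockout cells. The rule summed both stages, so the change with stage was not itself a criterion. Genes with nearly all control counts in 1 stage entered through that stage, however, which in part fixes their change with stage. Control levels of 8 genes came to less than 10% from after differentiation (among them HPGD, AC215217.1, KCNK2, DNAH8 and PROKR1). Those of ADAMTS14 and ATP8A2 came to less than 10% from before it. HPGD was below 25% of control at each stage. In knockout cells 26 of 59 fell, 6 rose and 27 were not called, against 27.7% of all tested genes called lower and 28.0% higher. Their median log2 change was -0.97, against 0.03 over all tested genes. With library sizes only, in place of TMM, 35.1% of all genes called in knockout cells were higher rather than 50.3%, and the median of all genes was -0.16. In control cells 33 fell, 9 rose and 17 were not called, against 22.3% of all tested genes called lower and 21.5% higher, with a median of -0.86 against 0.01. The genes that rose in knockout cells were OSBPL6, KCTD15, VLDLR, ADAMTS14, ATP8A2 and HPGDS, and those that rose in control cells were CFAP161, IL16, CD80, HPGDS, OSBPL6, KCTD15, ATP8A2, ADAMTS14 and AC007906.1. Among the 49 genes with at least 10% of the control level in each stage, 21 fell and 4 rose in knockout cells, and 25 fell and 7 rose in control cells. Few counts remained in knockout cells for many of the genes, which limits what could be called there.

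**Figure D3:**
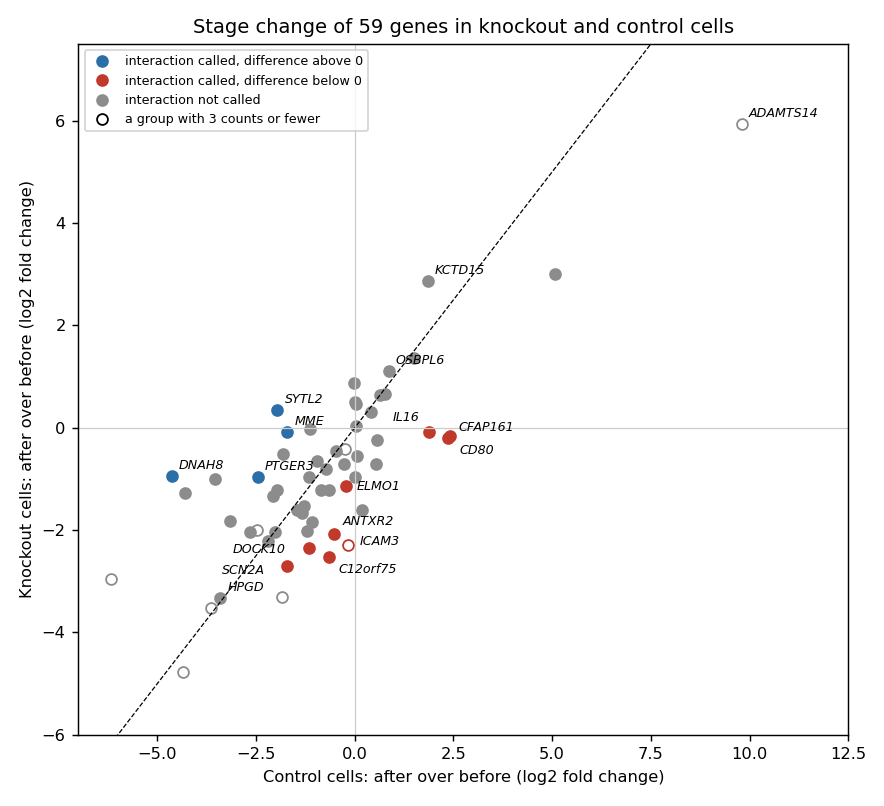
Log2 fold change after over before differentiation in knockout cells (vertical) against control cells (horizontal) for the 59 genes. The dashed line marks equal changes. Blue and red points were called in the test of the difference (knockout minus control), and open circles had a group with 3 counts or fewer. HPGD and OSBPL6 lie near the line, CFAP161, IL16 and CD80 lie at right with no rise in knockout cells, and DNAH8, PTGER3, MME and SYTL2 lie above the line.

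The difference between the 2 stage changes (knockout minus control) was called for 13 of the 59 genes, 9 below 0 and 4 above, where 6.7% and 6.3% of all tested genes were called. With library sizes only, 23.1% of all genes called in this test were above 0 rather than 48.5%, and the median of all genes was -0.14; the same 13 of these genes were called. Below 0 were CFAP161 (-2.58 ± 0.24, adjusted p = 3.46e-06), CD80 (-2.58 ± 0.63, adjusted p = 0.0113), ICAM3 (-2.14 ± 0.66, adjusted p = 0.0436) and IL16 (-1.95 ± 0.34, adjusted p = 0.001). C12orf75 (-1.88 ± 0.21, adjusted p = 2.01e-05), ANTXR2 (-1.54 ± 0.24, adjusted p = 0.000431), DOCK10 (-1.18 ± 0.21, adjusted p = 0.00143), SCN2A (-1.0 ± 0.29, adjusted p = 0.0281) and ELMO1 (-0.91 ± 0.12, adjusted p = 8.38e-05) followed. Above 0 were DNAH8 (3.69 ± 0.90, adjusted p = 0.0118), SYTL2 (2.30 ± 0.34, adjusted p = 0.000277), MME (1.63 ± 0.32, adjusted p = 0.00289) and PTGER3 (1.49 ± 0.32, adjusted p = 0.00495). For the genes above 0, control levels fell with differentiation toward knockout levels, and for CFAP161, IL16 and CD80 control levels rose away from them. ICAM3 was not called by edgeR with no filter on low counts (adjusted p = 0.115) or when a library was left out, except control replicate 2 before or control replicate 1 after differentiation (adjusted p up to 0.125). SCN2A was not called by edgeR without knockout replicates 1 or 2 after differentiation (adjusted p = 0.137 and 0.139), nor, at 0.0502 to 0.0559, without control replicate 1 after, knockout replicates 1 or 3 before or control replicate 2 before differentiation. CD80 was not called without knockout replicate 2 before differentiation (adjusted p = 0.0943, edgeR). Before differentiation CD80 had 15 counts in knockout and 18 in control libraries, 84.8% of control, and was not called lower (adjusted p = 0.781, edgeR). CD80 therefore met the ratio limit only through the libraries after differentiation. Its difference below 0 was thus in part fixed by how the genes were chosen. DESeq2 gave no adjusted p for CD80 or ICAM3. Without the 10 genes whose control level came almost wholly from 1 stage, 12 genes were called, 9 below 0, CD80 among them, and 3 above. That step kept genes that met the ratio limit through 1 stage only, such as CD80 and CFAP161. It therefore cannot tell how far the choice of genes shaped these calls.

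Genes beside the 59 were compared between knockout and control cells over both stages. Their values did not bring the 59 into the set, although the rule was applied to every gene. On each side of each gene the closest tested gene within 1 Mb that was outside the set and did not overlap it was taken, 104 in all. Genes overlapping a member were thus not counted as its neighbours. STARD5, which shares exon bases with IL16, was higher (0.52, adjusted p = 0.0388, edgeR) and counted only beside CFAP161, at 160 kb. Of these, 28 were lower in knockout cells (26.9%), 19 higher (18.3%) and 57 not called. Over all tested genes 16.9% were lower and 17.3% higher. With library sizes only, the neighbours were split into 36 lower and 12 higher and all tested genes into 4446 and 2021, with a median of -0.10 over all genes.

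Within 100 kb there were 38 non-overlapping neighbours of 30 of the genes, and 20 were lower (52.6%), 1 higher and 17 not called. Between 19 and 22 neighbours at this distance were lower under every other setting tried. Their median log2 change was -0.19, against -0.01 for all tested genes, so most of these differences were small. Some were larger. AC096751.1, 0.547 kb from HPGD, gave -1.79 (adjusted p = 0.0028), with a mean of 0.308 CPM in knockout and 1.34 CPM in control cells. At 22.1% of control it met the ratio limit itself and missed the set only by its 92 control counts. ACPP, encoding prostatic acid phosphatase and 73.1 kb from RPL7P16, gave -1.73 (adjusted p = 5.07e-08), with 16.3 CPM in knockout and 34.3 CPM in control cells. STK32B, a kinase gene 32.0 kb from CYTL1, gave -1.39 (adjusted p = 5.93e-07), and SGPL1, the sphingosine phosphate lyase 53.5 kb from ADAMTS14, gave -1.08 (adjusted p = 1.08e-05). ANXA1, the phospholipid-binding annexin A1 71.3 kb from ALDH1A1, gave -0.67 (adjusted p = 5.93e-06). Its change lay after differentiation (-1.3, adjusted p = 2.95e-07), with -0.05 before it (adjusted p = 0.815). At the small end were AVEN, 0.125 kb from RYR3, with -0.19 (adjusted p = 0.0476), MESD, 17.2 kb from CFAP161, with -0.23 (adjusted p = 0.0102), and GLO1, 12.2 kb from DNAH8, with -0.19 (adjusted p = 0.0055). The neighbour that was higher was IGFL2-AS1, 27.9 kb from IGFL2, with 1.71 (adjusted p = 7.46e-07). It gave 2.91 before differentiation (adjusted p = 4.32e-07), but was not called after it (0.51, adjusted p = 0.0999). Other close neighbours, such as SMARCAD1 at 7.24 kb from HPGDS (0.02, adjusted p = 0.808) and ZRANB2 at 15.5 kb from PTGER3 (-0.07, adjusted p = 0.374), were not called. A neighbour not called over both stages could still differ at a single stage. BAIAP2L2, 0.796 kb from SLC16A8, gave 0.91 over both stages (adjusted p = 0.0545). Before differentiation it gave 2.84 (adjusted p = 9.87e-06) and after it -1.03 (adjusted p = 0.142).

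**Figure D4:**
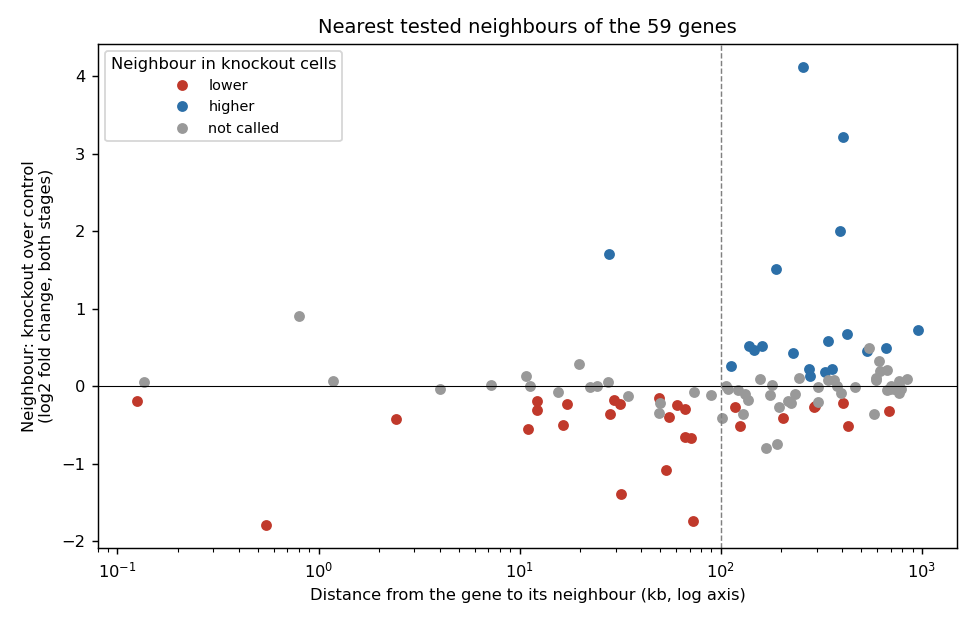
Log2 fold change of each nearest non-overlapping tested neighbour, knockout over control over both stages (vertical), against its distance from the gene in kb (log axis). Red points were called lower, blue higher and grey not called, and the dashed line marks 100 kb. Left of it 20 of 38 points are red, most of them shallow, and 1 is blue.

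Relatives of the reduced enzymes were called in both directions. Over both stages 34.2% of all tested genes were called, 17.3% higher and 16.9% lower. Of 12 tested aldehyde dehydrogenases, ALDH1A1 included, 5 were lower, 3 higher and 4 not called over both stages. ALDH1B1, a mitochondrial relative, gave -0.06 ± 0.07 over both stages (adjusted p = 0.557), but its direction differed by stage. It was lower after differentiation (-0.43 ± 0.1, adjusted p = 0.00278) and higher before it (0.32 ± 0.09, adjusted p = 0.0162). ALDH18A1, an enzyme of proline synthesis, rose by 0.48 ± 0.05 over both stages (adjusted p = 8.51e-07). In the retinoic acid pathway 1 of 9 genes, ALDH1A1 itself, was lower, 3 were higher and 5 not called; the receptor gene RXRA rose by 0.58 ± 0.09 (adjusted p = 4.57e-05). Among 10 aldo-keto reductases and polyol pathway genes 2 were lower, 3 higher and 5 not called, with AKR1A1 at 0.03 ± 0.06 (adjusted p = 0.721). Of 16 KCTD genes 4 were lower, 4 higher and 8 not called, and KCTD1, the closest relative of KCTD15, gave -0.85 ± 0.23 (adjusted p = 0.00814). Of 12 prostaglandin and leukotriene enzymes 3 were lower, HPGD and HPGDS among them, 2 were higher and 7 not called. PTGS1, the cyclooxygenase that starts prostaglandin synthesis, was higher by 1.35 ± 0.16 over both stages (adjusted p = 3.46e-06). After differentiation it was higher by 2.39 ± 0.22 (adjusted p = 2.4e-07), with 8.21 CPM in knockout and 1.53 CPM in control cells. Before differentiation it was not called (0.3 ± 0.22, adjusted p = 0.41), with 2.98 and 2.46 CPM. In all, 24 of the 53 tested relatives outside the set were called, 15 higher and 9 lower, or 11 and 14 with library sizes only. That scaling gave 6 prostaglandin and leukotriene enzymes lower and 2 higher, 5 and 2 aldehyde dehydrogenases, 3 and 2 aldo-keto reductases and polyol genes, 5 and 2 KCTD genes and, as before, 1 and 3 retinoic acid genes.

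The 59 genes were long and their promoters mixed. Protein-coding members spanned a median of 153 kb (n = 53), against 32.8 kb for the other 9963 protein-coding genes that met the count minimum and exclusions, and their median exon length was 6740 against 5110 bases. Their summed control level was lower, at a median of 37.7 against 127 CPM. RefSeq start-site windows of 300 bases were found for 44 of the genes. The median ratio of observed to expected CpG was 0.72 (quartiles 0.377 and 0.895) against 0.855 (0.722 and 0.963) for 8204 other genes, and the median GC content was 65.2 against 65.3%. A ratio under 0.6 was found in 17 of 44 windows (38.6%), against 14.5% of the others. SCN2A (0.27), IL16 (0.32) and ANTXR2 (0.18) were among the CpG-poor windows, and PLEKHA5 (1.10), DOCK10 (0.96) and RYR3 (0.84) among the CpG-rich ones.

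The letters GATA with A or T before and A or G after them, searched on both strands as the core bound by GATA factors, were in 15.9% of the 44 windows and 14.5% of the others. TATAAA was in 4.55% and 5.53%, and CCACACCC, the core bound by KLF1, in 2.27% and 2.85%. These values are descriptions with no test, since the genes were chosen by expression. For genes with several starts, ELMO1 and ALDH1A1 among them, the RefSeq window need not be the start used in these cells.

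**Figure D5:**
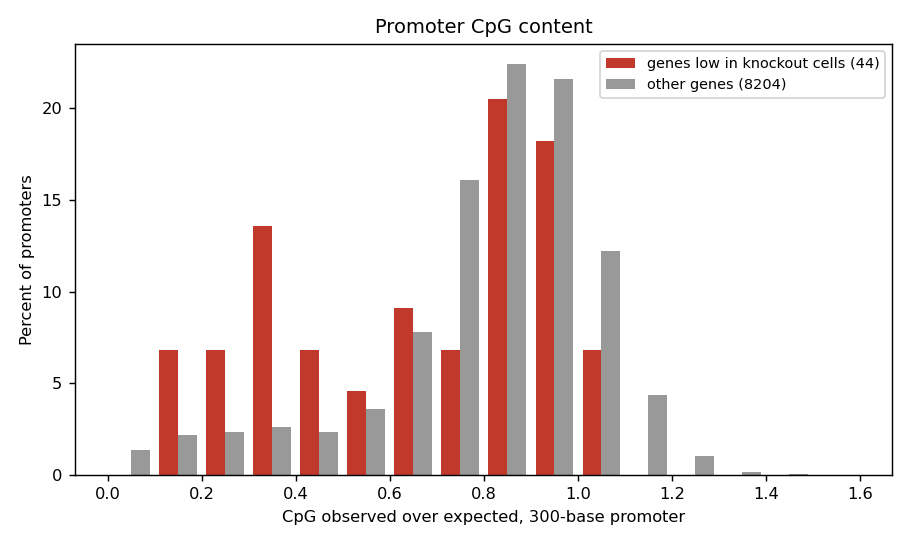
Percentage of 300-base start-site windows (vertical) by the ratio of observed to expected CpG (horizontal, bins of 0.1) for the reduced genes (red, 44 windows) and other genes (grey, 8204 windows). The reduced genes have bars at low ratios, between 0.1 and 0.5, beside a main peak shared with the other genes between 0.8 and 1.0.

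Markers of other cell types were measured beside these results, over both stages, where 16.9% of all tested genes were lower and 17.3% higher. Of 15 tested mast cell and basophil markers (24 listed, HPGDS included) 12 were lower, 2 higher and 1 not called. Their summed level was 626 to 641 CPM in knockout and 1050 to 1070 CPM in control libraries after differentiation, and 1250 to 1270 and 1540 to 1590 CPM before. KIT, also listed as a stem and progenitor gene, averaged 369 and 584 CPM of this after and 660 and 738 CPM before. The tryptase gene TPSAB1 gave -1.5 ± 0.13 and GATA2 -0.77 ± 0.09 (adjusted p = 6.50e-08 and 5.90e-06), while the IgE receptor gene FCER1A and the chymase gene CMA1 averaged under 0.1 CPM in each group. Stem and progenitor genes were called lower in 9, higher in 5 and not called in 3 of 17, with summed levels of 1750 to 1850 and 1990 to 2060 CPM after and 1830 to 1870 and 2060 to 2140 CPM before. Erythroid markers were higher in 24 of 24, with summed levels of 25300 to 25500 CPM in knockout and 12500 to 13000 CPM in control libraries after differentiation, and 10900 to 12400 and 9440 to 9920 CPM before. Neutrophil and monocyte markers were higher in 7, lower in 2 and not called in 2 of 11, and megakaryocyte markers higher in 3, lower in 1 and not called in 2 of 6. None of 3 tested lymphoid markers was called, and of 2 tested stromal and endothelial markers TAGLN was higher. With library sizes only, 23 of 24 erythroid markers were higher and 12 of 15 mast cell and basophil markers were lower. The part of cell stage or cell mixture in the reduced levels was not tested.

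Reads were counted with no strand option, so reads of overlapping genes cannot be told apart. Exon bases shared with another gene made up 71.2% of ICAM3 (AC114271.1, opposite strand), 38.1% of PROKR1 (APLF), 36.6% of IL16 (STARD5 and AC103858.1, opposite strand), 27.3% of KAZN, 24.9% of CD80 (TIMMDC1, opposite strand) and 22.3% of LILRP1 (LILRB1). The levels of these 6 genes are uncertain to that extent. HPGD, ALDH1A1, SCN2A, CFAP161 and AKR1B1 shared no exon base with another gene.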

How the data were processed

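Total RNA of HUDEP-2 cells was depleted of ribosomal and globin RNA and sequenced from stranded libraries, per the labels' protocols. The authors deposited whole-number counts of read pairs per gene. Per the file headers these were made with featureCounts 1.4.6-p4 on hg38 with GENCODE 22, with no strand option. The submitters' processing notes give featureCounts 1.2.6, Subread 1.6.2, edgeR 3.18.1, Trimmomatic and FastQC. The deposited count table also gives another value, each gene's length in bases of merged exons, per the file headers. It holds gene IDs only. Symbols and gene types were matched by ID from GENCODE 29, which named 56753 of 60483 genes and left 3730 without a symbol.

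The counts were fitted with edgeR 4.0.16 in R 4.3.3 (TMM factors, filterByExpr, quasi-likelihood F-test, 1 mean per group over 12 libraries), with Benjamini-Hochberg adjustment over 17175 genes and a threshold of 0.05. Knockout and control were compared after, before and over both stages, the stages within each genotype, and the 2 stage changes with each other. SE is the log2 fold change divided by the square root of F. Total counts were 7667997 to 14047498 per library, and exact intervals cover counting error only. The code was tested on simulated counts.

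The members, lists and tests were chosen with earlier results of these data known, and roles were assigned after values were seen. Named by rule were the most abundant, the most reduced and the most stage-dependent members, those near the thresholds or another member, members of a gene list, relatives in those lists and called neighbours. Other members, the neighbours SMARCAD1, ZRANB2 and BAIAP2L2, and the marker KIT were named after their values were seen. Knockout-control differences of members were not used as evidence, since they chose the set. Promoters, from RefSeq (GRCh38.p14), were matched by symbol. Alternatives were RLE factors, library sizes only, no filter, DESeq2 1.42.0, a replicate block, each library left out, other membership limits and, added after seeing the data, the stage counts without 10 genes expressed almost wholly in 1 stage.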

Additional observations from a re-analysis of the deposited data

Results flagged for a closer look

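The change with differentiation differed between knockout and control cells, by the test of the difference itself, for 13 of the 59 genes (edgeR quasi-likelihood test, log2 knockout minus control). It was below 0 for CFAP161 (-2.58), CD80 (-2.58), ICAM3 (-2.14), IL16 (-1.95), C12orf75 (-1.88), ANTXR2 (-1.54), DOCK10 (-1.18), SCN2A (-1.0) and ELMO1 (-0.91). It was above 0 for PTGER3 (1.49), MME (1.63), SYTL2 (2.30) and DNAH8 (3.69). Of the 59 genes, 15.3% were called below 0 and 6.78% above, against 6.7% and 6.3% of all tested genes. The share above 0 was thus close to that of all genes.

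CFAP161 and IL16 are neighbours on chromosome 15. DNAH8 rested on 6 counts in knockout and 16 in control libraries after differentiation, CD80 on 9 and 90, and ICAM3 on 3 and 51. Knockout and control libraries overlapped for CD80 before differentiation and for DNAH8 after it. Both genes thus entered the set through the other stage, which in part fixed the sign of their difference. So did all others called but SCN2A. Before differentiation CFAP161 (43.6% of control), IL16 (40.5%), ICAM3 (38.3%), ANTXR2 (32.8%), ELMO1 (30.4%), C12orf75 (30.2%) and DOCK10 (26.8%) were above the 25% limit. After differentiation PTGER3 (49.4%), SYTL2 (46.8%) and MME (43.2%) were above it. The shares of the 59 genes called below and above 0 therefore depend in part on how the genes were chosen.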

How the results depend on the processing

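The number of genes meeting the rule followed its limits. It was 36 with a control minimum of 200 counts and 39 with a stricter ratio limit of 20%. With a control minimum of 50 counts in each stage, it was 24 when both stages had to meet the rule, 95 in the libraries after differentiation alone (41 of them among the 59) and 52 in those before it alone (42 among the 59). It ranged from 48 to 60 when 1 library was left out. Neighbours within 100 kb called higher numbered 1, and 2 without control replicate 2 before or control replicate 3 after differentiation, a leave-one-out range of 1 to 2. All other counts, each taken in both directions together or in the 1 direction stated, stayed within 1.5 times, and no named value reversed. Split by direction, genes called higher before differentiation numbered 1024 without control replicate 1 before differentiation, against 1558. With library sizes only, 1846 rather than 2882 genes were higher and 4823 rather than 2805 lower after differentiation, 4446 rather than 2894 lower over both stages, and 644 rather than 1082 above 0 and 2146 rather than 1151 below 0 in the difference of stage changes. Neighbours (12 rather than 19 higher), relatives (14 rather than 9 lower) and prostaglandin and leukotriene enzymes (6 rather than 3 lower) moved likewise. Leaving out the 10 genes with under 10% of the control level in 1 stage, chosen after seeing the data, kept the stage counts within 1.5 times. Of the alternatives for named genes that gave an adjusted p, 404 kept the call and 19 lost it, all 19 in ICAM3, SCN2A or CD80. DESeq2 gave none for the difference of stage changes of CD80 and ICAM3.

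Equal replicate numbers were not taken to pair the libraries, since not every correlation of their deviations was above 0.1: they ran from -0.018 to 0.251 (median 0.106, 16 of 18 above 0), against -0.25 to 0.182 (median -0.056) for different numbers, and not every library correlated best with its own number. With the replicate number as a block, 3489 rather than 2958 genes were called before and 6135 rather than 5687 after differentiation, 6309 rather than 5867 over both stages, and 2728 rather than 2233 in the difference of stage changes. ICAM3 then had an adjusted p of 0.0525 in edgeR, and no other named call changed under the block.

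Depth limits the 23 genes with fewer than 200 control counts, where a change in knockout cells may be missed. With 3 libraries a group, an exact permutation test of 1 gene cannot go below p = 0.1, so calls rest on the fit across all genes.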
